A study of Mus musculus with 6 samples.

Results

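The genes described here are 38 genes of the autophagy pathway, found by symbol among the 55487 genes of the deposited table, where each symbol matched 1 gene. Expression was measured by poly-A RNA sequencing of LSK cells, the lineage-negative, Sca-1-positive and Kit-positive bone marrow cells that hold blood stem cells and early multipotent progenitors. The 6 libraries comprised 3 from littermate wild-type mice and 3 from mice labelled Mc5r-/- (null below), which lack the melanocortin 5 receptor, through which melanocortin peptides raise cAMP. The series describes the mice as irradiated, a treatment that both genotypes would share, and the sources used here give no dose, time, age, sex or targeted allele. The labels do not say how many mice went into a library, so SDs and p-values measure the spread between libraries, which may be technical.

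Autophagy is the route by which a cell encloses part of its own cytoplasm in a membrane and delivers it to the lysosome for breakdown. A kinase complex starts the process, a lipid kinase complex marks the membrane, and ubiquitin-like conjugation attaches proteins of the Atg8 family to it, to which receptors carrying cargo bind. In blood stem cells the pathway is known for clearing mitochondria and for keeping the cells in a low metabolic state, and in red cell precursors for removing mitochondria before release.

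Gene counts per library summed to between 13983016 and 14953169. Counts of Mc5r, which check the labels, were 181, 157 and 198 in the wild-type libraries and 0, 0 and 1 in the null libraries. The LSK markers Kit (between 238 and 243 CPM, counts scaled by library total, in wild type and between 251 and 261 in null) and Ly6a, which encodes Sca-1 (between 47.1 and 65.8 and between 60.0 and 77.6), were present in every library. Immunoglobulin transcripts took between 2.14% and 2.15% of counts in wild type and between 6.87% and 6.96% in null. CPM values below are shares of all counts, so this difference enters them, whereas the fitted fold changes are scaled by TMM, a scaling that balances most genes between libraries.

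Most autophagy genes differed little between the genotypes. Of the 38 genes, 37 passed the filter on low counts and were tested, and 7 passed the quasi-likelihood test of edgeR with an adjusted p below 0.05 (Benjamini-Hochberg over 15257 genes). This was 18.9% of the tested autophagy genes, against 32.9% of all genes tested. In null cells 5 rose, Gabarapl1, Nbr1, Map1lc3a, Ulk1 and Wipi1 (13.5%, against 16.8% of all genes tested), and 2 fell, Atg12 and Atg3 (5.41%, against 16.1%). None of the 7 changed by more than 1.37-fold. The median log2 fold change of the 37 genes was -0.01 and that of all genes tested -0.005. The median absolute log2 fold change was 0.08 for the autophagy genes and 0.18 for all genes tested. The CPM ranges of the genotypes were separate for 14 of the 37 genes, or 37.8%, against 49.8% of all genes tested. After TMM scaling they were separate for 12, or 32.4%, against 48.2%. All autophagy genes together held between 0.191% and 0.196% of counts in wild type and between 0.189% and 0.199% in null, ranges that overlap.

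**Figure D1:**
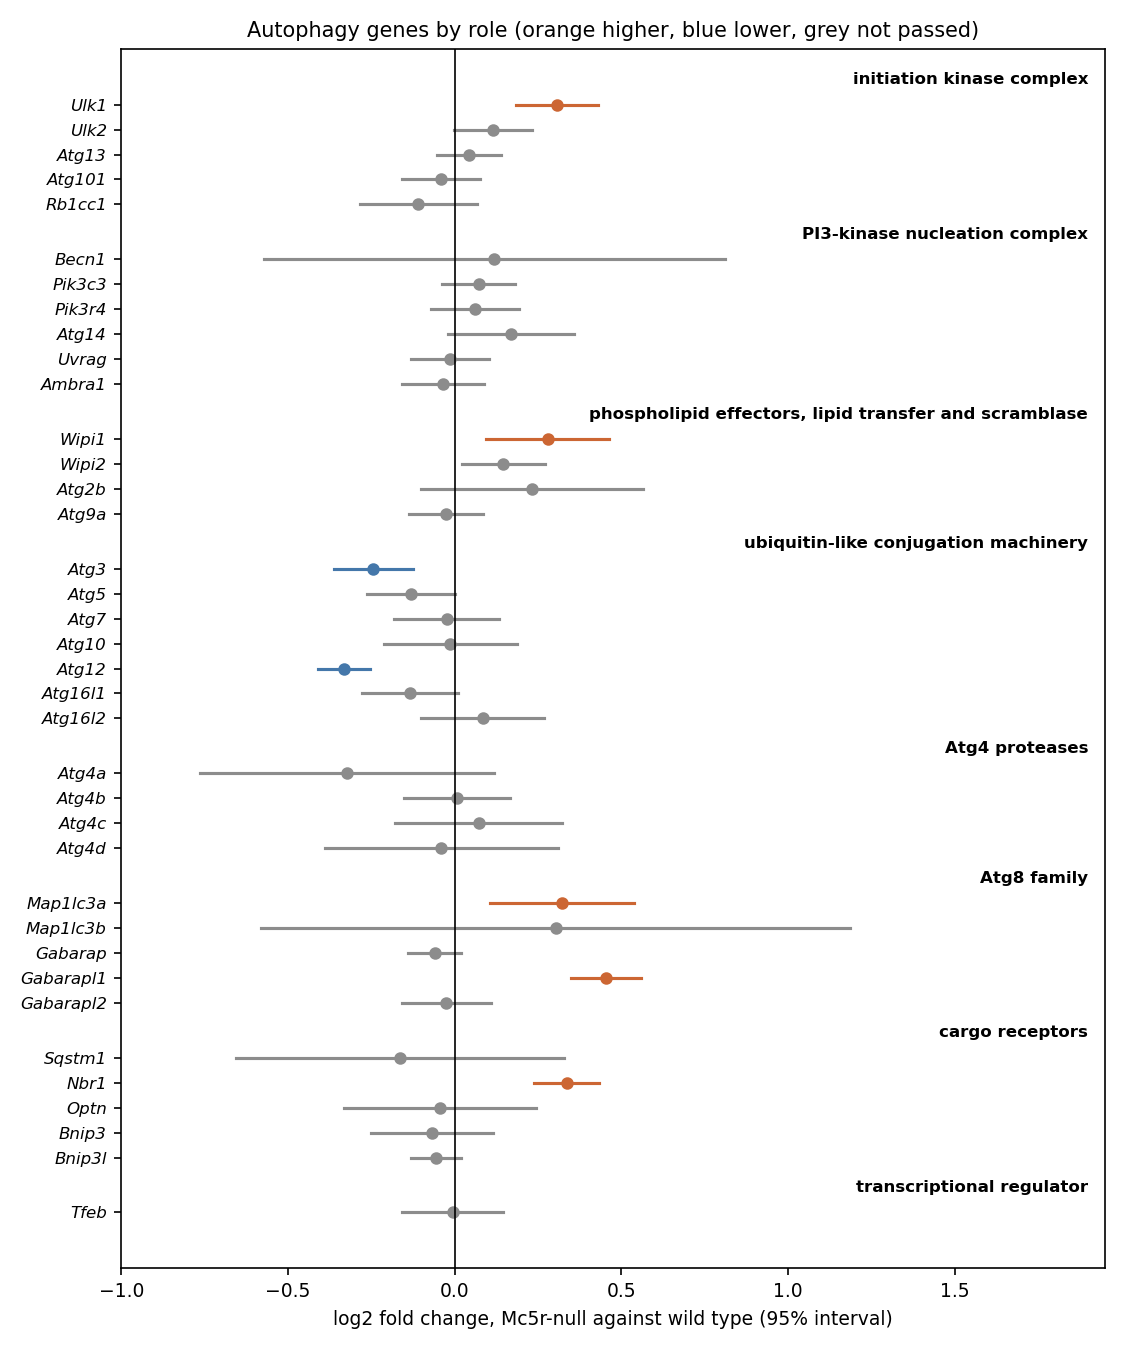
Fitted log2 fold change (x axis, null against wild type) of the 37 tested autophagy genes, grouped by role, with the 95% interval of each as a line. The 7 genes that passed the test are in colour, 5 to the right and 2 to the left of 0, and the widest intervals are those of Map1lc3b, Becn1 and Sqstm1.

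Of the 30 tested genes that did not pass, 27 had a log2 fold change within 0.2 of 0, and for 21 the whole 95% interval lay within 0.32, that is within 1.25-fold in either direction. A change of that size can therefore not be excluded for the other 9. In counts simulated from this comparison, of which 15092 genes passed the filter, the test called 10% of 100 genes changed 1.25-fold and 55% of 100 changed 1.5-fold. Only these genes were changed in the simulation, whereas 5023 of 15257 genes were called in the data. With few changed genes the adjustment asks for a smaller p. The simulated percentages can therefore be lower than the share of such changes called in the data.

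**Figure D2:**
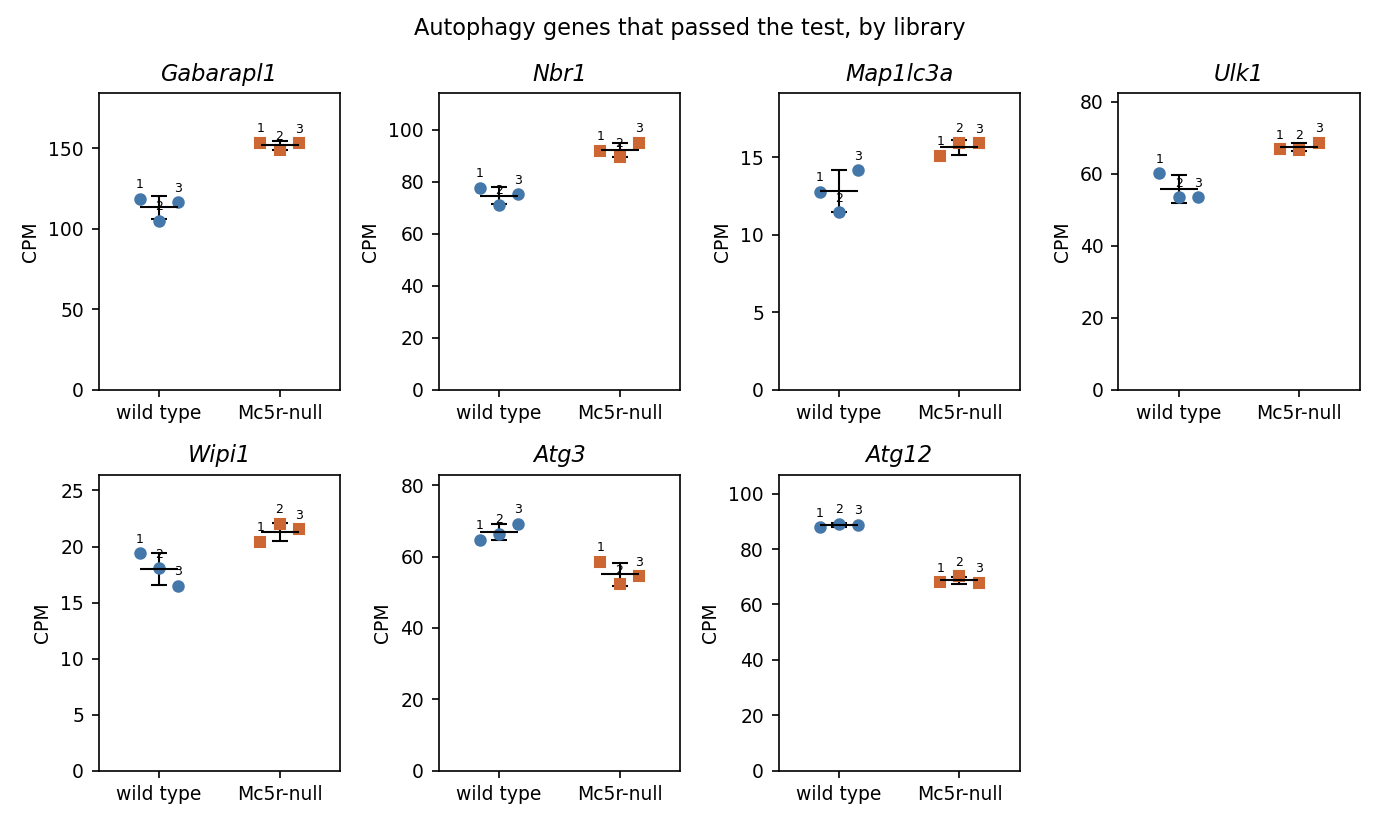
CPM in each library (points, numbered by replicate) of the 7 autophagy genes that passed the test, with the mean as a bar and the SD as whiskers, n = 3 per genotype. In each panel the wild-type and the null libraries occupy separate ranges, and every axis starts at 0.

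In the initiation complex, the kinase gene Ulk1 rose and the other 4 genes did not pass. Ulk1 (ENSMUSG00000029512, GRCm38 chromosome 5, positions 110784488 to 110810097, minus strand) encodes the protein kinase that starts autophagosome formation. It had 60.1, 53.5 and 53.5 CPM in the wild-type libraries and 66.8, 66.7 and 68.6 CPM in the null libraries. The lowest null library lay above the highest wild-type library. The fitted increase was 1.24-fold (log2 fold change 0.31 ± 0.05 SE, edgeR adjusted p = 0.00296). Its paralogue Ulk2 had 43.8 ± 2.13 CPM in wild type and 46.3 ± 0.475 in null (SD, n = 3 each) and did not pass (edgeR adjusted p = 0.125, 95% interval of the log2 fold change -0.003 to 0.23). Whether the kinase genes differed from each other in their change was not tested. Atg13 and Atg101, adaptor subunits of the complex, had log2 fold changes of 0.04 and -0.04, and Rb1cc1, the scaffold subunit also called FIP200, had -0.11 (95% interval -0.28 to 0.07).

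None of the 6 genes of the lipid kinase complex passed. Pik3c3, the catalytic subunit Vps34, had 48.7 ± 1.01 CPM in wild type and 50.003 ± 1.74 in null, and Pik3r4, its regulatory subunit Vps15, had 36.3 ± 1.13 and 37.0 ± 2.03 CPM (SD, n = 3 each). Atg14, the subunit that directs the complex to forming autophagosomes, had the highest fitted log2 fold change of the 6, 0.17 (95% interval -0.02 to 0.36). Uvrag, the subunit of a second complex acting on endosomes, and Ambra1, a Beclin 1 regulator, had log2 fold changes of -0.01 and -0.04. Becn1, the Beclin 1 gene, varied too widely between libraries of one genotype for a difference to be seen and is described with the uneven genes.

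Among the genes that act on the growing membrane, Wipi1 rose. Wipi1 (ENSMUSG00000041895, chromosome 11, positions 109573331 to 109611967, minus strand) encodes a protein that binds the lipid made by Vps34. The wild-type libraries held 19.4, 18.1 and 16.5 CPM and the null libraries 20.4, 22.0 and 21.5 CPM. The ranges were separate but close, and the fitted increase was 1.21-fold (edgeR adjusted p = 0.0296). DESeq2 did not make this call (adjusted p = 0.116), nor did edgeR when replicate 2 or 3 of either genotype was left out (adjusted p between 0.0692 and 0.0858). Wipi2, which recruits the conjugation machinery, had 85.6 ± 6.59 CPM in wild type and 92.5 ± 0.630 in null (SD, n = 3 each) and did not pass (edgeR adjusted p = 0.0745). The lipid scramblase gene Atg9a had a log2 fold change of -0.03 (95% interval -0.14 to 0.09). Of the lipid transfer genes, Atg2b is described below, and Atg2a had between 1 and 9 counts in a library, under the filter. Without the filter its log2 fold change was -0.74 (edgeR adjusted p = 0.451).

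The genes that fell both belong to the conjugation machinery. Atg12 (ENSMUSG00000032905, chromosome 18, positions 46730144 to 46741580, minus strand) encodes the ubiquitin-like protein that is joined to Atg5. Its libraries held 87.8, 89.1 and 88.8 CPM in wild type and 68.0, 70.1 and 67.9 in null. All 3 null libraries were lower, by far more than the spread within a genotype. The gene fell 1.26-fold (log2 fold change -0.33 ± 0.03 SE, edgeR adjusted p = 0.000159). Atg12 lies on the chromosome of Mc5r, 21.6 Mb from it. Of the 387 genes tested on that chromosome 16.0% were called lower, near the share of all genes tested. This share covers the whole chromosome, and an effect of the region around Mc5r was not tested. Atg3 (ENSMUSG00000022663, chromosome 16, positions 45158785 to 45188538, plus strand) encodes the conjugating enzyme that passes Atg8 proteins to the membrane lipid. It had 64.7, 66.4 and 69.2 CPM in wild type and 58.6, 52.3 and 54.4 in null. The ranges were separate, and the gene fell 1.18-fold (log2 fold change -0.24 ± 0.05 SE, edgeR adjusted p = 0.00762).

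The other 5 conjugation genes did not pass. Atg5, the partner of Atg12, had 43.4 ± 1.17 CPM in wild type and 38.7 ± 2.17 in null (SD, n = 3 each; edgeR adjusted p = 0.115), and Atg16l1, which places the Atg12-Atg5 conjugate on the membrane, had 37.9 ± 1.82 and 33.8 ± 1.84 CPM (edgeR adjusted p = 0.138). For both, the fitted log2 fold change was -0.13. Atg7, the activating enzyme, had -0.02 and Atg10, the conjugating enzyme for Atg12, had -0.01, while Atg16l2, a paralogue of Atg16l1, had 0.08. The 4 Atg4 proteases, which trim Atg8 proteins and release them from the membrane, did not pass either. Atg4b had 47.0 ± 2.22 and 46.2 ± 4.0 CPM (SD, n = 3 each), and Atg4c had a log2 fold change of 0.07 (95% interval -0.18 to 0.32). Atg4d had 22.7, 20.8 and 27.2 CPM in wild type and 26.8, 19.5 and 20.95 in null, ranges that overlap (log2 fold change -0.04, 95% interval -0.39 to 0.31). Atg4a had only between 21 and 37 counts in a library, so that its 95% interval ran from -0.77 to 0.12. A pseudogene named for it, Atg4a-ps, held 459 counts in wild type and 341 in null, so the split of reads between the copies is uncertain.

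The start region of Atg3 is shown because it was the only one of the 36 promoter windows of the autophagy genes (31 of the 38 genes had an entry) to hold the letters TCACGTGA. These contain CACGTG, the core bound by TFEB and related factors. The 250 bases before the start lie at chr16:45158579-45158828 (GRCm38.p6, plus strand, from RefSeq), and capitals mark CACGTG and TCACGTGA.
Atg3: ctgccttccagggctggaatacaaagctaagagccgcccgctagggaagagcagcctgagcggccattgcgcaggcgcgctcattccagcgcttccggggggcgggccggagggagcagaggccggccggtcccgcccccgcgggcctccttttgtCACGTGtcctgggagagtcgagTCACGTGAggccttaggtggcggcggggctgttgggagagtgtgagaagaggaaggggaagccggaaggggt
CACGTG stood at 94 and 71 bases before the start. Windows of 300 bases (250 before and 50 after a start) were searched on both strands. CACGTG was in 7.15% of all 32851 windows, at least 2 copies were in 0.594%, and TCACGTGA was in 0.974%. These shares are not matched for base content. The median GC content was 60.8% in the windows of autophagy genes and 52.7% in all windows. Among the autophagy genes, CACGTG was in the windows of Atg3, Atg5, Atg7, Atg14 and Bnip3, and of these genes Atg3 was the 1 that passed the test. The bases before the start in the windows of Atg7 and Atg14 lie wholly inside the annotated gene. The letters TGACGTCA, a full cAMP response element, were in 1.79% of all windows and in those of Atg5 and Atg16l2, neither of which passed. Matches are descriptions of sequence only.

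The Atg8 family, whose proteins coat the autophagosome membrane and bind cargo receptors, held the largest rise. Gabarapl1 (ENSMUSG00000030161, chromosome 6, positions 129533160 to 129542346, plus strand) had 119, 105 and 116 CPM in wild type and 153, 149 and 153 in null. Every null library was well above every wild-type library. The gene rose 1.37-fold (log2 fold change 0.45 ± 0.05 SE, edgeR adjusted p = 0.000151). Map1lc3a, which encodes LC3A (ENSMUSG00000027602, chromosome 2, positions 155276297 to 155278073, plus strand), was expressed at a lower level, with 12.8, 11.5 and 14.2 CPM in wild type and 15.1, 15.9 and 15.9 in null. The ranges did not overlap and the fitted increase was 1.25-fold (edgeR adjusted p = 0.0305). DESeq2 did not make this call (adjusted p = 0.119), and edgeR made it when wild-type replicate 3 was left out but not when any other library was (adjusted p between 0.0537 and 0.0930). Gabarap had 122.6, 122.7 and 123.2 CPM in wild type and 115.6, 119.0 and 110.8 in null. Scaled by TMM, its log2 fold change was -0.06 (95% interval -0.14 to 0.02), and it did not pass, as Gabarapl2 did not (-0.03, 95% interval -0.16 to 0.11).

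By deposited FPKM, Gabarap and Gabarapl1 stood side by side at the top of all 38 genes in wild type and apart in null. FPKM values divide counts by a gene length and the library total. The lengths used are not given. For Gabarapl1, Becn1 and Sqstm1 they were not in constant proportion to annotated exon bases. Levels, ranks and shares of different genes therefore hold only for the lengths used in the deposit. The FPKM values were 36.9 ± 0.0962 for Gabarap and 35.5 ± 2.27 for Gabarapl1 in wild type (SD, n = 3 each), levels that overlap. In null they were 34.6 ± 1.24 and 47.5 ± 0.821. Of the summed FPKM of the 5 family members, Gabarapl1 made up 36.1 ± 1.30% in wild type and 43.3 ± 2.33% in null, and Gabarap 37.6 ± 1.14% and 31.4 ± 0.411%. Map1lc3b, Map1lc3a and Gabarapl2 were lower in both genotypes, at 7.68 ± 0.186, 5.06 ± 0.534 and 13.0 ± 0.307 FPKM in wild type. The size of this gap depends on the lengths used. In CPM, which uses no length, Map1lc3b had 81.2 ± 1.97 and Gabarapl1 113 ± 7.25 in wild type. The next genes by FPKM were Sqstm1, Atg101, Bnip3l and Atg3, and the lowest were Rb1cc1, Atg4a and Atg2a.

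**Figure D3:**
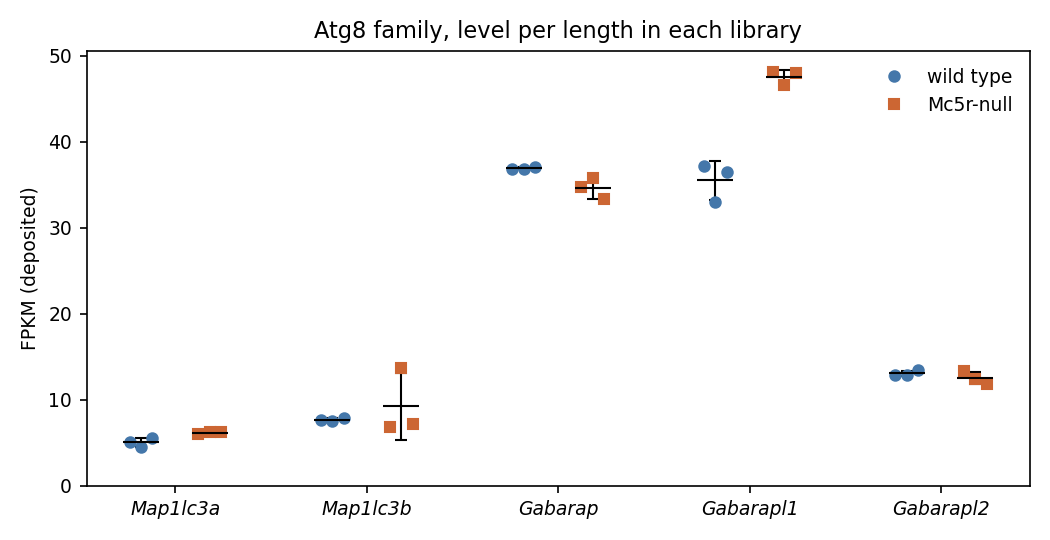
Deposited FPKM (y axis) of the 5 Atg8 family genes in each library, with the mean as a bar and the SD as whiskers, n = 3 per genotype. Gabarapl1 lies near 35.5 in wild type, beside Gabarap, and near 47.5 in null, and 1 null library of Map1lc3b stands above the other 2.

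The start region of Gabarapl1 is shown as that of the gene with the largest rise. The 250 bases before its start lie at chr6:129532942-129533191 (GRCm38.p6, plus strand, from RefSeq), and capitals mark ATAAACA, a form of the core bound by FOXO factors.
Gabarapl1: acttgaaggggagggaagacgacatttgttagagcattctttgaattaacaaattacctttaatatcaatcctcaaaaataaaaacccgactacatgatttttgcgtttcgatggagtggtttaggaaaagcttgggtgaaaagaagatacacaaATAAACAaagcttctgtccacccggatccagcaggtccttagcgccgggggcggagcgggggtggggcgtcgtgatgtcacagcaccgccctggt
ATAAACA began 95 bases before the start. It was searched only after this sequence had been read, and was in 4.60% of all windows and in those of Gabarapl1, Wipi2, Ambra1 and Atg4a. The related letters GTAAACA were in 3.65% of all windows and in 0 of the 36 windows of autophagy genes. The windows of Ulk1, Nbr1 and Wipi1 held none of the letters searched. Atg12 and Map1lc3a, which also passed the test, had no promoter entry and were not searched.

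Of the cargo receptor genes, Nbr1 rose. Nbr1 (ENSMUSG00000017119, chromosome 11, positions 101552149 to 101581951, plus strand) encodes a receptor that ties ubiquitin-marked cargo to Atg8 proteins. It had 77.7, 71.1 and 75.3 CPM in wild type and 91.9, 89.4 and 94.97 in null. The groups were separate, and the gene rose 1.26-fold (log2 fold change 0.34 ± 0.04 SE, edgeR adjusted p = 0.000568). The receptors of mitochondria did not pass. Bnip3l, also called NIX, which marks mitochondria for removal in maturing red cells, had 95.5 ± 1.97 CPM in wild type and 89.8 ± 1.69 in null (SD, n = 3 each), and its log2 fold change scaled by TMM was -0.06 (95% interval -0.13 to 0.02, edgeR adjusted p = 0.232). A pseudogene, Bnip3l-ps, held 1467 counts in wild type and 1266 in null, so its reads may be split. Its relative Bnip3 had 14.6 ± 0.352 and 13.6 ± 0.862 CPM (log2 fold change -0.07). Optn, the optineurin gene, had 9.04 ± 0.965 and 8.57 ± 0.985 CPM.

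The genes with the largest scatter within a genotype relative to counting noise were Map1lc3b, Sqstm1, Becn1 and Atg2b. Atg4d came next, with 6.85 times counting noise in wild type and 9.49 times in null. Map1lc3b, which encodes LC3B, had 80.3, 79.8 and 83.5 CPM in wild type and 72.4, 145 and 75.8 in null. Null replicate 2 held close to the sum of the other null libraries, and the scatter of the 3 was 242 times that of counting noise. The fitted log2 fold change was 0.30 (95% interval -0.58 to 1.18), and -0.10 without that library (edgeR adjusted p = 0.129). Sqstm1, which encodes the receptor p62, had 213, 216 and 199 CPM in wild type and 232, 161 and 155 in null. Null replicate 1 lay above all wild-type libraries and the other null libraries below them all. With all libraries the log2 fold change was -0.17 (edgeR adjusted p = 0.557). Without null replicate 1 the gene was called lower, at -0.38 (edgeR adjusted p = 0.000646), and the cause of the spread was not tested.

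Becn1 was uneven in both genotypes, with 81.7, 60.2 and 92.2 CPM in wild type and 61.3, 98.8 and 88.2 in null. The ranges overlapped almost fully (log2 fold change 0.12, 95% interval -0.57 to 0.81). Of its exon bases, 43.9% are shared with Cntd1 on the opposite strand, a gene with 114 counts in wild type and 156 in null. Atg2b had 47.7, 48.7 and 51.3 CPM in wild type and 51.4, 68.6 and 49.4 in null, with replicate 2 apart (log2 fold change 0.23, and 0.06 without it). The libraries that stood apart were not the same for each gene. A spread of more than 1.5-fold within a genotype was met by 2 of the 37 autophagy genes (5.41%), Map1lc3b and Becn1, and by 11.0% of the genes tested at or above the level of the lowest of them. The median scatter between libraries, as chi-square over degrees of freedom, was 0.823 in wild type and 1.45 in null for the autophagy genes. For all genes tested it was 1.06 and 1.04. Counting noise alone would give a median below each of these values.

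**Figure D4:**
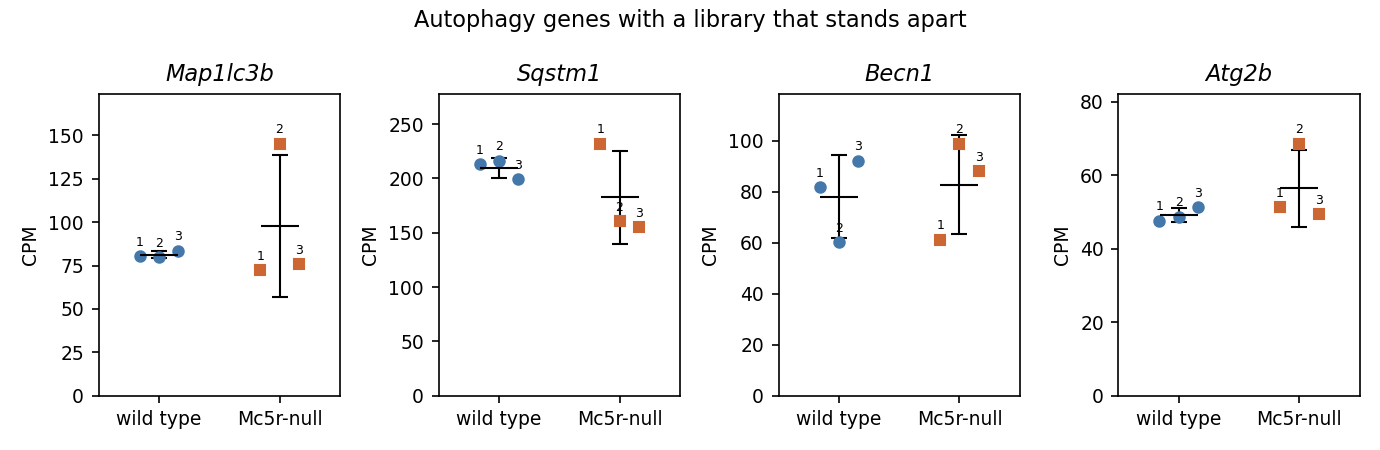
CPM in each library (points, numbered by replicate) of Map1lc3b, Sqstm1, Becn1 and Atg2b, with the mean as a bar and the SD as whiskers, n = 3 per genotype. Null replicate 2 is high for Map1lc3b and Atg2b and null replicate 1 for Sqstm1, while Becn1 varies in both genotypes.

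Tfeb, which encodes a transcription factor that drives lysosomal and autophagy genes, had 19.9, 20.3 and 21.8 CPM in wild type and 20.1, 19.9 and 20.4 in null. The groups overlapped and the 95% interval of the log2 fold change was narrow, -0.16 to 0.15. Among 10 tested genes of other factors known to act on autophagy genes, 2 rose and 4 fell (40.0% lower, against 16.1% of all genes tested; median log2 fold change -0.04). The genes of the forkhead factors Foxo1 (1.67-fold, 17.9 ± 1.34 to 29.1 ± 1.98 CPM) and Foxo3 (1.52-fold, 97.3 ± 2.40 to 144.9 ± 4.91 CPM) rose (SD, n = 3 each). Ddit3, which encodes the stress factor CHOP, fell 1.35-fold, and Nfe2l2, which encodes the antioxidant factor NRF2, fell 1.32-fold. Their edgeR adjusted p was 0.000504 and 0.000604, and that of Foxo1 and Foxo3 was 0.000250 and 5.64e-06. A further entry named Ddit3 lay below the filter on low counts, so reads of that gene may be split.

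Further autophagy genes outside the 38 were called in both directions. Of 16 tested genes of further autophagy machinery, 6 rose and 2 fell (37.5% and 12.5%, against 16.8% and 16.1% of all genes tested; median log2 fold change 0.12). Tecpr1, which encodes a protein that links autophagosomes to lysosomes, rose 1.45-fold from 28.7 ± 0.711 to 40.5 ± 0.634 CPM, and Rubcnl, which encodes Pacer, a regulator of autophagosome maturation, rose 1.44-fold. Sh3glb1, the gene of the Beclin 1-associated endophilin Bif-1, rose 1.25-fold, while Vmp1, the gene of a membrane scramblase needed for autophagosome formation, fell 1.34-fold from 77.5 ± 2.92 to 56.6 ± 5.77 CPM (SD, n = 3 each). Of 16 tested genes of other receptors and of mitophagy, 3 rose and 2 fell (18.8% and 12.5%, near those shares of all genes tested; median 0.05). The mitophagy kinase gene Pink1 rose 1.38-fold, from 97.6 ± 3.81 to 131.9 ± 4.01 CPM, and Calcoco1, a receptor gene for endoplasmic reticulum and Golgi, 1.45-fold, from 36.9 ± 1.54 to 52.3 ± 1.57 CPM. Rtn3, another receptor gene for endoplasmic reticulum, fell 1.15-fold. Phb2, the prohibitin 2 gene, fell 1.098-fold, a call not made by DESeq2 or when replicate 1 of either genotype or null replicate 2 was left out.

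The upstream nutrient-sensing genes showed shares near those of all genes tested. Of 31 genes of mTORC1 and AMPK regulation, 5 rose and 4 fell (16.1% and 12.9%; median 0.01). Sesn1, a sestrin gene that restrains mTORC1, rose 1.17-fold and Castor1, the gene of an arginine sensor, 1.58-fold. The latter had 3.10 ± 0.503 CPM in wild type and 4.80 ± 0.16 in null (SD, n = 3 each) and was not called with DESeq2. Rraga, a Rag GTPase gene, and Lamtor4, a Ragulator gene, which hold mTORC1 at the lysosome, each fell 1.19-fold.

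More lysosomal genes fell than rose, in a list chosen with earlier results of these data known. Of 27 such genes 15 fell and 2 rose, which is 55.6% lower against 16.1% of all genes tested, and the median log2 fold change was -0.20. The number lower was between 12 and 16 under the alternatives of scaling, test, filter, block, left-out library and immunoglobulin genes. The alpha-galactosidase gene Gla fell most, 1.92-fold from 42.2 ± 0.673 to 21.5 ± 0.891 CPM. The beta-hexosaminidase gene Hexa fell 1.38-fold, the membrane protein gene Lamp1 1.31-fold from 326.6 ± 6.09 to 243.5 ± 2.3 CPM, and the cholesterol transfer gene Npc2 1.21-fold (SD, n = 3 each; edgeR adjusted p at most 2.91e-05 for these 4). Among those that rose was the sulfamidase gene Sgsh (1.41-fold).

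**Figure D5:**
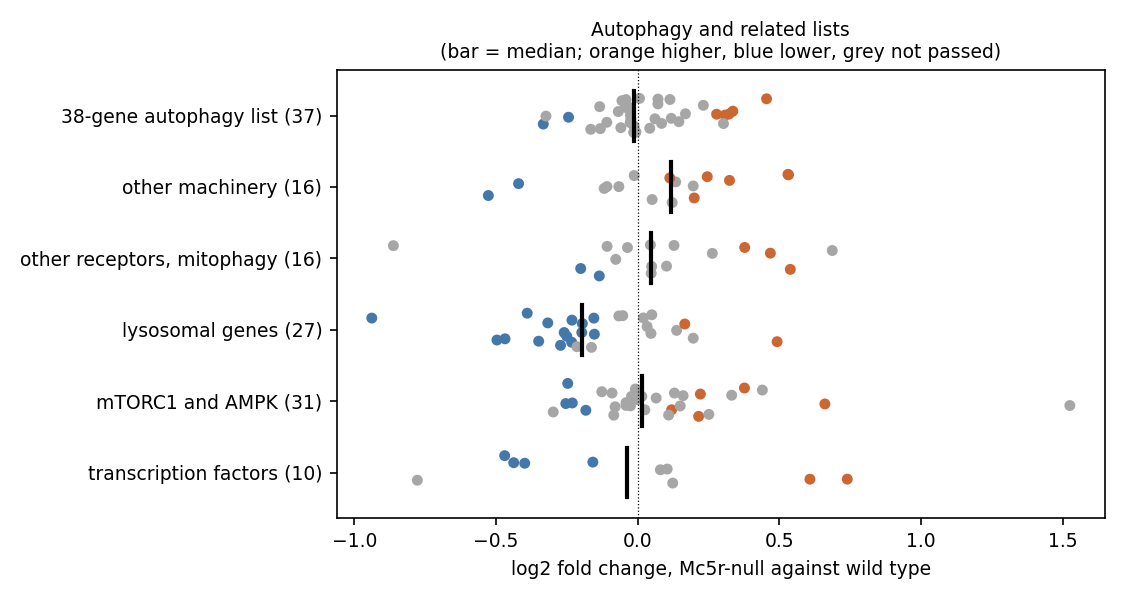
Fitted log2 fold change (x axis, null against wild type) of each tested gene of the 38-gene autophagy list and of 5 related lists, with the number tested in brackets and the median as a bar. The median of the lysosomal genes is -0.20, with 15 of 27 genes called lower, while the medians of the autophagy list (-0.01) and of the mTORC1 and AMPK list (0.01) lie near 0.

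Markers of several cell types differed between the genotypes beside these results. Of all genes tested, 16.8% were called higher and 16.1% lower, the background for the counts below. In bulk RNA, fewer cells of a type and less RNA per cell cannot be told apart. Of 12 myeloid progenitor and neutrophil markers, 11 were lower (91.7%) and none higher. Their summed level was between 16676 and 17609 CPM in wild type and between 10719 and 11162 in null. Of 8 mast cell and basophil markers, 7 were lower (87.5%), with a summed level between 464 and 476 CPM, against between 180 and 190 CPM. Of 12 tested erythroid markers 10 were higher (83.3%) and 1, Tfrc, was lower (8.33%). Their summed level, most of it Tfrc, was between 275 and 281 CPM in wild type and between 399 and 403 in null. Tfrc fell from 247.4 ± 2.74 to 224.6 ± 2.10 CPM, so the sum understates the rise of the others. The 2 with the smallest p were Hba-a1, from 9.69 ± 0.967 to 77.4 ± 0.844 CPM, and Hbb-bt, from 9.24 ± 0.393 to 41.4 ± 0.787 CPM (SD, n = 3 each). Of 12 plasma and B cell markers, 10 were higher and 1 lower (83.3% and 8.33%). Their summed level was between 2047 and 2096 CPM in wild type and between 3115 and 6100 in null, the lowest in null replicate 3. Most of that sum was Jchain, with 1760 ± 20.4 CPM in wild type (SD, n = 3). In the null libraries Jchain had 5603, 5495 and 2619 CPM, so the low sum of null replicate 3 came from this gene. Of 8 LSK and progenitor markers, 6 were higher (75.0%), with a summed level between 1434 and 1467 CPM, against between 1775 and 1840 CPM. Of 7 tested macrophage markers 1 was higher and 4 lower (14.3% and 57.1%). Their summed level was between 98.8 and 106 CPM in wild type and between 77.9 and 81.2 in null. Of 5 tested T and NK cell markers 2 were higher and 1 lower (between 302 and 306 CPM, against between 255.4 and 257.7 CPM). Most of that sum was Nkg7, which fell from 267.3 ± 1.32 to 204.6 ± 2.96 CPM (SD, n = 3 each), while Cd3e and Lck rose. The level of Cd3e was low, at 0.223 ± 0.194 CPM in wild type and 1.02 ± 0.168 in null (SD, n = 3 each). Of 7 tested endothelial and stromal markers 4 were higher (57.1%), with a summed level between 116 and 121 CPM, against between 127 and 136 CPM. Most of this sum was Pecam1, which did not pass (log2 fold change -0.008). The higher markers with the smallest p had low levels. Sparc went from 1.85 ± 0.257 to 5.89 ± 0.633 CPM and Kdr from 0.580 ± 0.192 to 2.56 ± 0.197 CPM (SD, n = 3 each). No marker was at 0 in all libraries. The part of these differences in the changes of autophagy and lysosomal genes was not tested.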

How the data were processed

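Poly-A RNA of LSK cells was sequenced from stranded paired-end libraries, 3 per genotype, per the labels' protocols. The authors deposited whole-number counts per gene without normalization and FPKM values beside them, per the file headers. The submitters' processing notes name CASAVA 1.8, HISAT2, StringTie, edgeR and GRCm38 without roles. The counting program and its use of strand are not given in the sources used here. Whether the counts tell apart reads of genes that overlap on opposite strands is therefore not known. All 38 gene positions equalled those of GENCODE mouse release 21, from which strands were taken.

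Counts were analysed with R 4.3.3 and edgeR 4.0.16: filterByExpr (minimum count 10, minimum total 15), TMM scaling and the robust quasi-likelihood test over all genes, called at an adjusted p under 0.05. The SE is the log2 fold change divided by the root of F, and 95% intervals use the moderated degrees of freedom. CPM and FPKM values are descriptive. Scatter relative to counting noise is the chi-square of the 3 counts of a genotype over its degrees of freedom. Libraries of a genotype differed in each pair (mean chi-square per gene between 6.08 and 8.29). The median of the scatter over genes was 1.06 in wild type and 1.04 in null. Counting noise alone would give a median below both, since the median of a chi-square lies below its mean. The libraries were kept as the labels give them, and whether they are biological replicates is not known. The test was checked on simulated data. Promoter sequences are those of RefSeq (GRCm38.p6). Protein sequences were not used here.

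The autophagy genes and the related and marker lists were chosen with earlier results of these data known. Named genes are all called autophagy genes and, from each related list, up to 4 with the smallest p (2 from marker lists). Sgsh, Tfrc, Cd3e, Jchain and Pecam1 were named after their values were seen. The alternatives tried were RLE and upper-quartile scaling, DESeq2 1.42.0, limma-voom (limma 3.58.1), no filter, 1 CPM in 3 libraries, a replicate block, leaving out each library, removing immunoglobulin genes, and thresholds of 0.01 and 0.1. The counts of lysosomal genes under the alternatives were added after seeing the data. Outliers were not tested, since a genotype had only 3 libraries.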

Additional observations from a re-analysis of the deposited data

How the results depend on the processing

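Gabarapl1, Nbr1, Ulk1, Atg12 and Atg3 kept their direction and their call under all 14 alternatives fitted for each gene. The log2 fold change of Gabarapl1 ranged from 0.40 to 0.49 and that of Atg12 from -0.35 to -0.32. Of the 5 autophagy genes called higher, 3 were called with DESeq2, with the replicate block and at an adjusted p under 0.01, and between 3 and 4 without 1 library. Wipi1 and Map1lc3a account for these losses. Of all genes, 5023 were called, 3101 with DESeq2, 2996 at an adjusted p under 0.01 and between 4070 and 4184 without 1 library. At an adjusted p under 0.1, 6 autophagy genes were higher and 2 lower. The log2 fold change of Map1lc3b ranged from -0.10 to 0.48 and that of Becn1 from -0.04 to 0.29 without 1 library. Both turned negative without null replicate 2 (Map1lc3b -0.102, Becn1 -0.0331), as Becn1 did without wild-type replicate 2 (-0.0398). The cause was not tested. The labels do not say whether libraries with equal replicate numbers share more than the number. Their deviations from the genotype means correlated at 0.00255, -0.0408 and -0.0240 for replicates 1, 2 and 3. No library correlated best with its own number. With the replicate block, 4402 genes were called, and Wipi1 (adjusted p = 0.0583) and Map1lc3a (adjusted p = 0.0501) were the autophagy genes that lost the call. Depth limits Atg2a and Atg4a, with at most 9 and 37 counts in a library.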

Other observations

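Several of the autophagy genes share exon bases with a gene on the opposite strand. For Gabarapl1 the share is 28.3%, with 1700101I11Rik, with 54 counts summed over the wild-type and 66 over the null libraries. For Sqstm1 it is 17.3%, with Mrnip (379 and 333 counts), and for Atg4d 19.3%, with Kri1 (3786 and 2731 counts). Atg9a shares 31.8% with Gm29253 on its own strand, which held 15 counts in wild type and 3 in null. Among the 7 autophagy genes that passed, Gabarapl1 was the only one with such an overlap in this annotation.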
